A study of Drosophila melanogaster with 2 samples.

Results

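Genes of translation factors were examined for binding of ATbp, a zinc finger protein whose name stands for A+T-rich DNA, in whole Drosophila melanogaster embryos. The members are the protein-coding genes of the Ensembl BDGP6 annotation whose names begin with eIF, eEF or eRF, and there are 54 of them among 13968 protein-coding genes. By name, 44 are initiation factors, 8 are elongation factors and 2 are release factors. The embryos came from a transgenic line that stably expressed ATbp with green fluorescent protein at its C-terminal end, were of both sexes and were 0 to 14 h old. Chromatin was immunoprecipitated through the tag in 2 biological replicates, which form a single group, so every value refers to tagged ATbp in a mixture of all embryonic tissues. No untagged or other comparison group was analysed here.

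Translation is carried out in stages. Initiation factors bring the initiator tRNA, the small ribosomal subunit and the capped mRNA together and then join the large subunit. Elongation factors deliver aminoacyl-tRNAs and move the ribosome along the mRNA, and release factors free the finished protein at a stop codon. Most of these proteins are needed in every cell, and early fly embryos also rely on regulated translation of maternal mRNAs. Names do not always match function. The protein that flies call eEF5 is known elsewhere as eIF5A, and eIF4EHP is a cap-binding repressor.

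ATbp summits were found at the promoters of some of these genes, and the sites differed in position and base composition. At the elongation factor genes eEF1gamma and eEF2 the summit, the point of highest signal in a peak, lay at the transcription start site (TSS). At eIF4EHP and eRF3 it lay upstream in DNA rich in A and T. The next sequences show these 4 sites, together with eIF4A, which has the weakest of the peaks, and eIF1, whose peak lies between it and a ribosomal protein gene. They are read 5′ to 3′ on the strand of the named gene from the dm6 genome assembly. A single capital marks the summit base, and a run of 8 capitals marks the DNA replication-related element (DRE), TATCGATA.
eEF1gamma, chr3R:29220092-29220191, plus strand, 80 bases before to 20 after the start: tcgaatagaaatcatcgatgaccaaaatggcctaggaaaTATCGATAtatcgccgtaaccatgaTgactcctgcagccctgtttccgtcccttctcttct
eEF2, chr2L:21682145-21682244, minus strand, 80 bases before to 20 after the start: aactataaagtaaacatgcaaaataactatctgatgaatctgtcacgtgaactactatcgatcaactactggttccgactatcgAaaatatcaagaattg
eIF4A, chr2L:5981684-5981783, plus strand, 80 bases before to 20 after the start: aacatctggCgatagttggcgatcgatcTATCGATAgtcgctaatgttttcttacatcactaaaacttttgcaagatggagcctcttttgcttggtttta
eIF4EHP, chr3R:24109126-24109226, minus strand, 50 bases on either side of the summit: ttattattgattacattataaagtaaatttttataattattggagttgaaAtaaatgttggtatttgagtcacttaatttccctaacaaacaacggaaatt
eRF3, chr2L:12434327-12434427, plus strand, 50 bases on either side of the summit: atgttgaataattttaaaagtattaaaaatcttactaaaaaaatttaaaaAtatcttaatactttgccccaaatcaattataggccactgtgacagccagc
eIF1, chr3L:3222969-3223069, plus strand, 50 bases on either side of the summit: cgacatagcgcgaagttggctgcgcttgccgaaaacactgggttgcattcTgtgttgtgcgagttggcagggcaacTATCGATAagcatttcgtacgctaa

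Of the 54 translation factor genes, 14 had a summit of the thresholded list within 500 bp of a TSS (25.9%, Wilson 95% interval 16.1 to 38.9). That list holds the 5921 peaks kept by the authors' irreproducible discovery rate (IDR) step on both replicates. Over all protein-coding genes the share was 14.9%. Initiation factor genes had 9 of 44 (20.5%, interval 11.2 to 34.5), elongation factor genes 4 of 8 (50%, 21.5 to 78.5) and release factor genes 1 of 2 (50%, 9.45 to 90.5). The intervals of the 3 classes overlap. With a single group of 2 replicates no test over samples could be made, and no class is called different from another. The intervals cover counting error only, and neighbouring genes that share a peak are not independent.

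**Figure D1:**
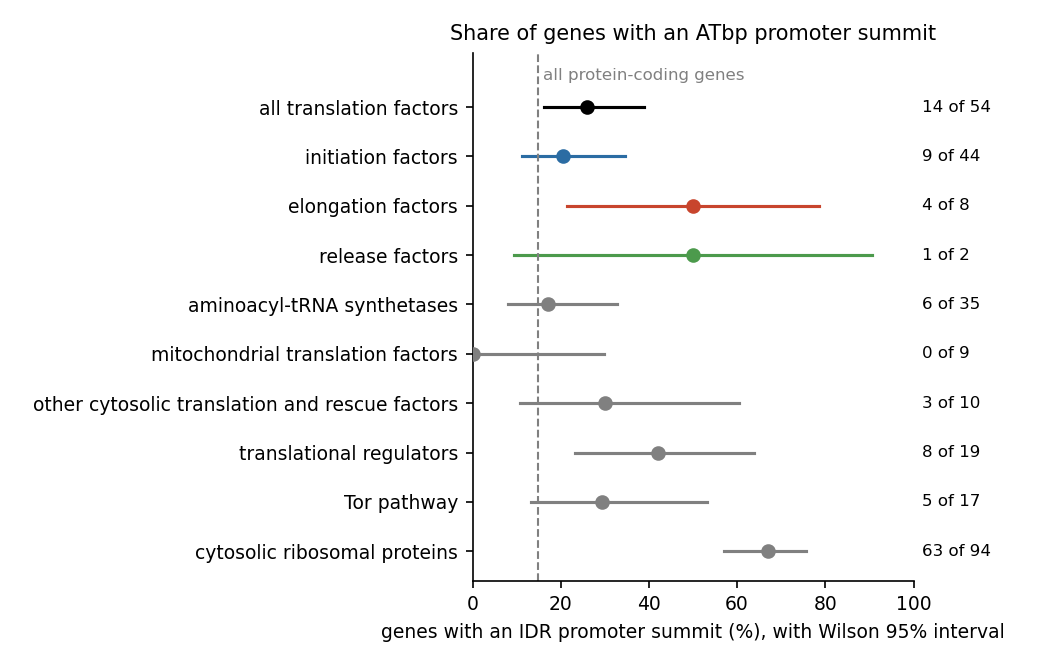
Share of genes with an IDR promoter summit (x axis, %) for translation factor genes, their 3 classes and other gene lists of translation (y axis), with Wilson 95% intervals as lines and counts at the right. The dashed line is the 14.9% of all protein-coding genes. Elongation factor genes stand at 4 of 8 and cytosolic ribosomal protein genes at 63 of 94.

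In the strongest 5921 peaks of either replicate alone the counts were close to this. Replicate 1 gave 15 members (27.8%) where all protein-coding genes gave 15.4%, and replicate 2 gave 13 (24.1%) where all gave 14.9%. Elongation factor genes had 4 of 8 in both, and release factor genes 1 of 2. The relaxed lists, of 30000 peaks each, reach down to weak signals and gave another view. In the pooled relaxed list 17 members (31.5%) had a promoter summit, below the 35.3% of all protein-coding genes. Replicate 1 gave 25 (46.3%) beside a background of 40.5%, and replicate 2 gave 17 (31.5%) beside 33.7%. In the relaxed lists the members' shares were therefore near the background. Of the 17 members in the pooled list, 14 were also in the IDR list (82.4%), as were 2078 of 4937 protein-coding genes (42.1%). The IDR peaks are the strongest pooled peaks, so this repeats that the members' pooled summits had high ranks, with a median rank of 2593 compared with 7455 for all protein-coding genes in that list. For the remaining genes, 26 members had no promoter summit in any relaxed list. The share of all protein-coding genes absent from every relaxed list was not made, so that count has no background.

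Among the initiation factors, the gene of eIF6 had the strongest promoter peak. eIF6 binds the large ribosomal subunit, keeps it from joining the small one too early and is needed to make new subunits. Its summit at 2R 23850399 had a signal of 1284.0 in the pooled list (rank 108), 555.7 in replicate 1 (rank 172) and 721.9 in replicate 2 (rank 68). It was 98 bp upstream of the eIF6 start and 69 bp inside the antisense noncoding gene asRNA:CR45928, whose start was nearer; the gene ytr also spans it. Signal values are the authors' and are read only within a list, so ranks are what can be set side by side between the replicates.

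Of the 13 genes named eIF4, which recruit mRNA through its cap, 3 had an IDR promoter summit, those of eIF4EHP, eIF4G2 and eIF4A. The share over all protein-coding genes was 14.9%, and no complex is called different from it. eIF4EHP binds the cap without recruiting the scaffold eIF4G and represses maternal mRNAs in the early embryo. Its summit at 3R 24109176 had pooled signal 1083.5 (rank 167), replicate 1 signal 492.6 (rank 221) and replicate 2 signal 594.7 (rank 126). The summit lay between the eIF4EHP start, 216 bp away, and that of the divergent gene CG18428, 160 bp away. Both replicates placed it within 19 bp of the pooled position.

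The other 2 eIF4 peaks were weak, and the replicates differed there. eIF4A, the helicase that unwinds the 5′ end of mRNAs, had the lowest rank of the 14 genes, 5704, with a pooled signal of 132.0 at 2L 5981693, 71 bp upstream of its first start. The nearest replicate summits were 22 bp away in replicate 2 (rank 4581) and 107 bp away in replicate 1 (rank 10673). The strongest eIF4A promoter summits of the replicates lay by its other starts, with ranks 4617 and 4040. eIF4G2, a germline relative of the scaffold eIF4G1, had its summit at 3R 23819204, 33 bp inside the gene, with pooled rank 4855 and replicate 1 rank 2698. Replicate 2 had no promoter summit there, and its nearest one of any kind was 1103 bp away. The gene CG33111 is annotated with the same start as eIF4G2. The genes of the main cap-binding protein eIF4E1, of eIF4G1, eIF4B, eIF4H1 and eIF4H2 and of the other eIF4E paralogs, eIF4E3, eIF4E4, eIF4E5, eIF4E6 and eIF4E7, had no IDR promoter summit.

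eIF3 is a large complex that binds the small ribosomal subunit, and 2 of its 16 genes had an IDR promoter summit. That is near the 14.9% of all protein-coding genes, so the subunits without one are listed only for completeness. The eIF3h gene held 2 of them, an intronic summit at 2L 5052466, 314 bp downstream of a start (rank 790), and a weaker one 32 bp downstream (rank 3654). The stronger had rank 833 in replicate 1 and rank 790 in replicate 2, with signals of 264.6 and 253.7. It was also 377 bp upstream of the start of senju. The eIF3m summit at 2R 14164818 was 7 bp inside its 5′ untranslated region (UTR), with pooled signal 190.3 (rank 3626), replicate 1 rank 3426 and replicate 2 rank 4271. The genes of the core subunits eIF3a, eIF3b, eIF3c and eIF3i had none. Nor had those of eIF3d1, eIF3d2, eIF3e, eIF3f1, eIF3f2, eIF3g1, eIF3g2, eIF3j, eIF3k and eIF3l. eIF3c was found in replicate 1 alone, at rank 4813 and 49 bp upstream of its start.

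The gene of eIF5B, the GTPase that joins the subunits, had its summit at 3L 3460746 with pooled signal 294.1 (rank 2014), replicate 1 signal 123.0 (rank 2906) and replicate 2 signal 163.2 (rank 1620). It lay 143 bp upstream of the nearer of 2 starts, inside the 5′ UTR of the longer transcript. eIF2D, which can deliver tRNA to the ribosome outside the main pathway, had a summit at 3R 29151962, 168 bp upstream of its start, with ranks 3804, 3542 and 5011 in the pooled, replicate 1 and replicate 2 lists. Of the 5 genes named eIF2, which include the unrelated factor eIF2A, it was the only one in the IDR list. The 3 subunits of eIF2 itself, which carries the initiator tRNA, had none. None of the 5 genes of eIF2B, the complex that reloads eIF2 with GTP, had one either. With a share of 14.9% over all protein-coding genes, groups of so few genes cannot show a lack of summits.

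eIF1, which keeps the scanning ribosome on the correct start codon, is a case in which the peak can be read for another gene. Its summit at 3L 3223019 (pooled signal 549.7, rank 701) was 322 bp upstream of the eIF1 start and 59 bp upstream of the start of RpL28, a ribosomal protein gene on the opposite strand. Replicate 2 had the same summit within 6 bp at rank 705. Replicate 1 had no summit within 100 bp, and its strongest eIF1 promoter summit was 227 bp away at rank 17912. The partner of eIF1 in scanning, eIF1A, had no IDR summit within 22.97 kb.

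At 4 elongation factor genes there was an IDR promoter summit. The strongest one of each gene lay within 35 bp of a start and had a summit within 19 bp in both replicates. The highest rank was at eEF1gamma, a subunit of the complex that reloads eEF1A with GTP. Its summit at 3R 29220156, 16 bp upstream of the start, had signal 933.2 in the pooled list (rank 244), 447.6 in replicate 1 (rank 290) and 476.8 in replicate 2 (rank 216). eEF2, the GTPase that moves the ribosome by a codon, had its summit at 2L 21682160, 4 bp downstream of the start, with signals of 306.9, 165.7 and 143.4 and ranks 1890, 1885 and 1941 in the same order. Those ranks were the closest together of the 4 genes.

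eEF1alpha1, which brings aminoacyl-tRNAs to the ribosome, had a summit at 2R 11892087, 35 bp upstream of a start, with ranks 1897, 2756 and 1416 in the pooled, replicate 1 and replicate 2 lists. A second IDR summit, of rank 4055, lay 104 bp upstream of its most distal start. eEF5, which helps the ribosome through difficult peptide bonds, had its summit at 2R 24057801, 3 bp downstream of the start, with ranks 2593, 2260 and 3059. The 4 elongation factor genes without an IDR summit were eEF1alpha2, eEF1beta, eEF1delta and eEFSec, the factor for selenocysteine. Of these, eEF1beta was found only in replicate 1, 6 bp upstream of its start at rank 10885, and eEF1alpha2 only in replicate 1 at rank 29879.

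The release factors form a pair. eRF1 reads the stop codon and eRF3 is its GTPase. The eRF3 summit at 2L 12434377 had pooled signal 177.7 (rank 3961), replicate 1 rank 4631 and replicate 2 rank 3464. It was 75 bp upstream of the first eRF3 start and 288 bp inside SC35, a splicing factor gene on the other strand. The replicate summits stood on either side of it, 39 bp and 78 bp away. eRF1 was in the pooled list at rank 6951, 103 bp upstream of a start, and in replicate 1 at rank 17996, and it had no promoter summit in replicate 2.

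**Figure D2:**
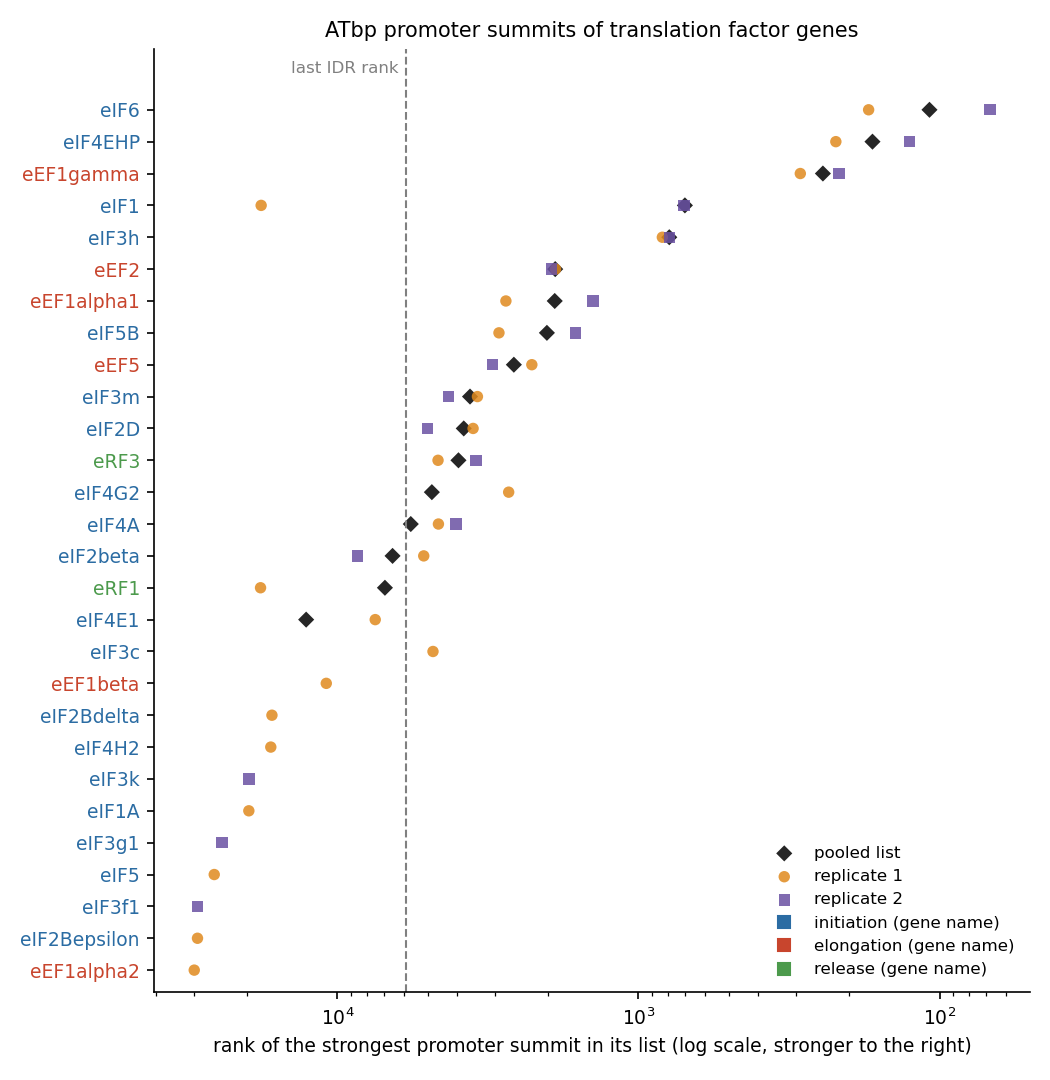
Rank of the strongest promoter summit (x axis, log scale, stronger to the right) in the pooled list and in each replicate list for the 28 translation factor genes that had one in any relaxed list. The dashed line is the last IDR rank, 5921. eIF6, eIF4EHP and eEF1gamma lead in all 3 lists, and replicate 1 stands apart at eIF1, with rank 17912 beside 705 in replicate 2.

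Members just past the limits show how they act. Inside the last IDR rank the nearest member was eIF4A at 5704. Beyond it came eIF2beta at pooled rank 6557 (replicate 1 rank 5166, replicate 2 rank 8566), eRF1 at 6951 and eIF4E1 at 12696. By distance, eIF1 at 322 bp was the last inside 500 bp. The first outside was eIF2Bbeta, whose start was 692 bp from the summit at X 2703879, the peak of rank 2 in the whole IDR list. Then came eIF3d1 at 1285 bp and eIF3g1 at 1383 bp.

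The 40 members without an IDR promoter summit had no IDR summit inside the gene either. How often this holds over all protein-coding genes was not counted. The distance from their starts to the nearest IDR summit ran from 0.692 kb to 3505.4 kb. That largest value belongs to eIF4B, which lies near the end of the 3L sequence, from 27842669 to 27858271. Besides eIF3c, eEF1beta and eEF1alpha2, 5 further members were found in replicate 1 alone. Those were eIF2Bdelta (rank 16494), eIF4H2 (16639), eIF1A (19681), eIF5 (25643) and eIF2Bepsilon (29146). Replicate 2 alone gave eIF3k (rank 19679), eIF3g1 (24142) and eIF3f1 (29130). Apart from eIF3c, all of these single-replicate summits were weaker than the 5921 strongest of their list. The share of all protein-coding genes found in a single replicate was not made, so these counts have no background. Over all protein-coding genes the replicate 1 list also had the larger share with a promoter summit, 40.5% compared with 33.7% in replicate 2.

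The replicates were compared by position and by rank. Of the 14 IDR summits, 11 had a summit within 100 bp in both replicates and 9 within 30 bp in both, the exceptions at 100 bp being eIF1, eIF4A and eIF4G2. Such counts were not made for all protein-coding genes, so whether they are usual is not known. The Spearman rho of replicate ranks was 0.68 over the 14 members with any promoter summit in both relaxed lists, lower than the 0.81 over 3683 protein-coding genes. Over the 11 genes it was 0.90, but these were picked for agreement in position, which leaves out eIF1 with its ranks of 17912 and 705. These values describe genes measured in the same pair of libraries.

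Distances from the start were compared for the strongest IDR promoter summit of each gene. At the elongation factor genes they were 3, 4, 16 and 35 bp, with a median of 10 bp. The median over the 9 initiation factor genes was 143.0 bp, with a range from 7 to 322 bp. These values leave out weaker second summits, at 104 bp for eEF1alpha1 and at 32 bp for eIF3h. The distances overlap, since eIF3m lay 7 bp and eIF4G2 33 bp from a start. Over all 14 members the median was 73.0 bp, over the 2078 protein-coding genes with an IDR promoter summit 164.0 bp, and over 63 such cytosolic ribosomal protein genes 19 bp. Within 50 bp of a start were 6 of the 14 members (42.9%), 12.8% of all such protein-coding genes and 85.7% of the ribosomal protein genes. In strength the 14 were near the rest, with a median rank of 1956 compared with 2324 for all 2078 genes and 1280 for the ribosomal protein genes. These comparisons are descriptions and were not tested.

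**Figure D3:**
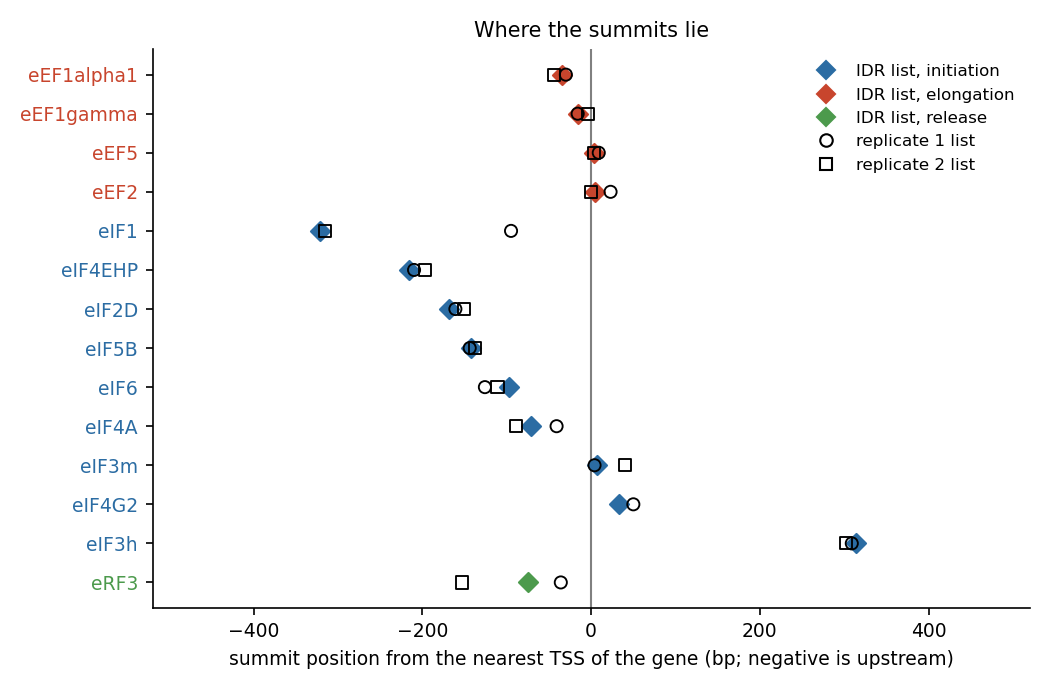
Position of the strongest promoter summit (x axis, bp from the nearest start of the gene, negative is upstream) at the 14 translation factor genes with an IDR promoter summit. Filled diamonds are the IDR list, open circles replicate 1 and open squares replicate 2. The strongest IDR summits of the 4 elongation factor genes lie within 35 bp of the start; the replicate marks of eIF4A refer to other starts of that gene.

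A neighbouring protein-coding gene also had a start within 500 bp of the summit at 6 of the 14 genes (42.9%), and 43.9% of all protein-coding genes with such a summit were in that position. They were eIF1 with RpL28, eIF3h with senju, eIF3m with CG8323, eIF4EHP with CG18428, eIF4G2 with CG33111 and eRF3 with SC35. At none of the 4 elongation factor genes was there such a neighbour. When a summit was given only to the gene with the nearest start, eIF1, eIF4EHP and eIF6 dropped out and 11 members (20.4%) were left, beside 11.8% of all protein-coding genes.

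The DNA under the members' summits ranged widely in A and T. Within 50 bp of the summit on either side the median A+T content over the 14 genes was 55.9%, and over all protein-coding genes with an IDR promoter summit it was 66.3%. eEF1alpha1 and eIF1 were lowest at 48.5% each, eEF5, eEF1gamma and eIF5B had 51.5%, and eIF4A had 52.5%. At the other end, eIF4EHP had 78.2%, eRF3 74.3% and eIF3m 70.3%. The 4 elongation factor genes had a median of 51.5%, close to the 52.5% of cytosolic ribosomal protein genes. No test was made of these differences.

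**Figure D4:**
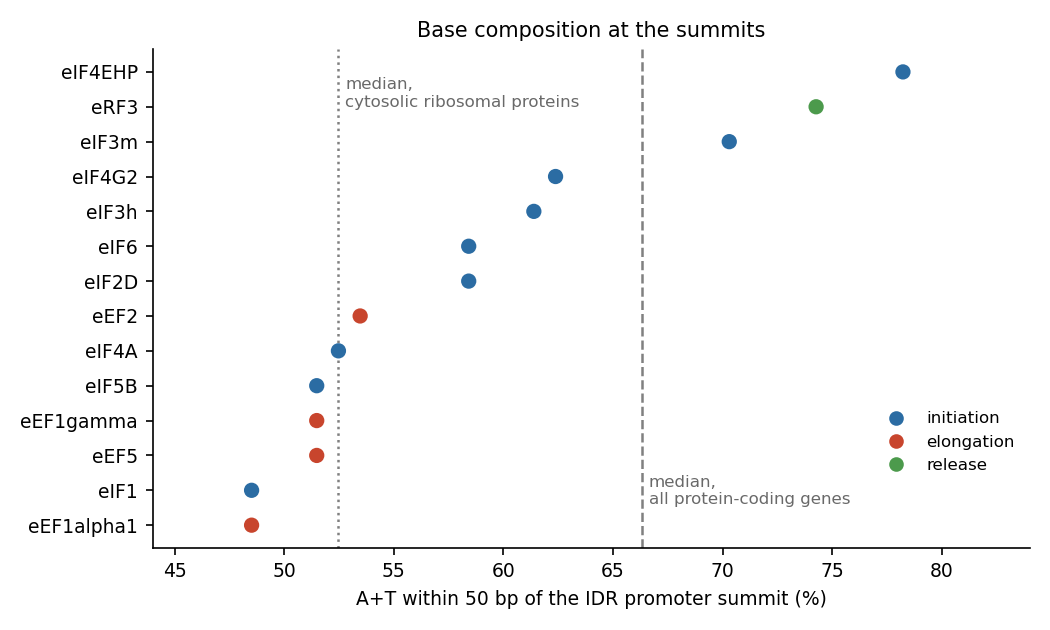
A+T content within 50 bp of the IDR promoter summit (x axis, %) at each of the 14 translation factor genes, coloured by class. Vertical lines mark the medians of all protein-coding genes with an IDR promoter summit (66.3%) and of cytosolic ribosomal protein genes (52.5%). The genes run from 48.5% at eEF1alpha1 and eIF1 to 78.2% at eIF4EHP, and 11 of them lie below the first line.

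Short promoter motifs were looked for in 250 bases before to 50 after the Ensembl canonical start of every gene. The DRE, which is bound by the factor DREF and marks many genes of growth, was written as TATCGATA, which reads the same on both strands. It was present in 15 of 54 members (27.8%), in 8.94% of 13967 protein-coding promoters and in 30.9% of ribosomal protein promoters. It was in 3 of 14 members with an IDR promoter summit (eEF1gamma, eIF4A and eIF6) and in 12 of the 40 others. The DRE marked above by the eIF1 summit is not among them, because it lies more than 250 bases before the eIF1 start. Among all protein-coding genes with an IDR promoter summit 9.77% held it. Ohler motif 7, CATCNCTA on either strand, was in 7 members (13.0%) and 6.31% of all. Ohler motif 1, GGTCACACT on either strand, was in 3 (5.56%) and 5.86%. TATAAA on either strand was in 26 members (48.1%) and in 45.3% of all promoters. It was in 10 of the 14 members with an IDR promoter summit (71.4%), in 16 of the 40 others and in 43.1% of all protein-coding genes with such a summit. When every annotated start was searched, TATAAA was in the same 71.4% of the 14 members and in 56.2% of all protein-coding genes with such a summit. Matches of different motifs may overlap. In 10 bases on either side of the start, on the gene's strand, the initiator letters TCAGT were in 1 member, eEF1alpha2, and in 12.1% of all genes. There the TCT element, NCTTTNT, the start signal of many ribosomal protein genes, was in 0 of 54 members, 1.74% of all and 16.0% of ribosomal protein genes. Since most ribosomal protein genes had no match either, 0 of 54 cannot show that the members lack the element. These are matches of letters and say nothing of what binds there.

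Other genes of translation were counted in the same way, beside the 14.9% of all protein-coding genes. Cytosolic ribosomal protein genes, taken here by names in RpL or RpS with sta and Rack1 and so including paralogs named as like a ribosomal protein, had 63 of 94 (67.0%), led by RpL7 at rank 131. Aminoacyl-tRNA synthetase genes had 6 of 35 (17.1%, interval 8.10 to 32.7), led by IleRS at rank 1198, followed by SerRS, ThrRS, GluProRS, AlaRS and CysRS-m. Mitochondrial translation factor genes had 0 of 9, with a Wilson upper limit of 29.9%. Other cytosolic factors had 3 of 10 (interval 10.8 to 60.3). They were pAbp, for the poly(A)-binding protein, at rank 2259, pelo, for ribosome rescue, at 5623, and kra at 5785. The pAbp summit lay 479 bp downstream of a start, near the 500 bp limit. The ranks of pelo and kra are near the last IDR rank, 5921.

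Regulators of translation had 8 of 19 (42.1%, interval 23.1 to 63.7). The list names nos and 4EHP matched no gene and are not among the 19. The strongest was larp, for an RNA-binding protein of mRNAs of the translation machinery, with rank 65 and a summit 356 bp upstream of a start. The kinase gene Gcn2, which inhibits eIF2, followed at rank 863, then Sxl at 1053, orb at 1171, Thor, for the protein that blocks eIF4E, at 1524, tral at 2385, Lk6 at 3925 and Fmr1 at 5226. The Tor pathway, which sets translation by nutrients, had 5 of 17 (29.4%, interval 13.3 to 53.1). The names Tor and Akt1 matched no gene in the annotation and are not among the 17, so they were not examined. Sesn led at rank 56, followed by Thor, which is on both lists, foxo at 1813, Pdk1 at 1818 and InR at 2161.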

How the data were processed

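Chromatin immunoprecipitation of tagged ATbp was measured by sequencing in 2 replicates. Per the labels, fragments were 200 to 800 bp. The deposited peak lists on dm6 were used. Peak signal values were deposited by the authors, on a scale that no source used here states. The authors' column of −log10 q-values was deposited too and is not printed. For aligner, peak caller, IDR threshold and read counts the entry is: not given in the sources used here. Depth is therefore unknown. Per the deposited notes, each replicate list and the pooled list were made with a control, and the IDR list from both replicates.

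Summits were set against 24111 TSSs of 18277 genes (Ensembl release 115, dm6 coordinates, transposable elements left out) and the RefSeq copy of the same assembly. A gene took its strongest summit within 500 bp of any of its TSSs, and ranks follow signal. The assignment was tested on simulated data. Computations ran in pandas 2.3.3 and SciPy 1.17.1, with NumPy 2.4.6, under Python 3.11.15. Members, lists and motifs were chosen with earlier results of these data known. Every bound member is named, members found only in relaxed lists are named with ranks, and the rest are named by class. Of the names in the other lists, 7 matched no gene and were left out: Tor, Akt1, nos, 4EHP, Gcn1, Ligatin and mEFG2. The list counts therefore say nothing of summits under these names. Alternatives were other promoter widths, each replicate alone, stronger or weaker peaks, the nearest TSS, the most upstream TSS, and overlap of the interval. A summit within 100 bp in both replicates was required in an alternative added after the data were seen.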

Additional observations from a re-analysis of the deposited data

How the results depend on the processing

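The count of 14 translation factor genes ran from 9 to 17 over the alternatives. The share of all protein-coding genes, 14.9% in the report, moved too. The members numbered 13 with promoters of 250 bp (without eIF1; all genes 11.1%), 15 with 1000 bp (18.8%) or with the peak interval (16.4%), where eIF2Bbeta was gained, 14 with the most upstream TSS (12.5%) and 11 with the nearest TSS alone (11.8%). Requiring a summit within 100 bp in both replicates, an alternative added after the data were seen, left 11. For that alternative no share over all protein-coding genes was made, so the 11 cannot be set against a background. The stronger part of the IDR peaks, the first 2960 ranks, left 9 (16.7%; all genes 8.76%), with initiation factors at 5 and release factors at 0, and elongation factors kept all 4. The pooled relaxed list gave 17 (all genes 35.3%), with release factors at 2. Leaving out a replicate gave 13 to 15 in all, 8 to 10 initiation, 4 elongation and 1 release factor genes: without replicate 2, eIF1 was lost and eIF2beta and eIF3c were gained, and without replicate 1, eIF4G2 was lost. With promoters of 250 bp the translational regulators had 5 of 19, compared with 8 in the report, and the Tor pathway 3 of 17, compared with 5 (all genes 11.1%). With 1000 bp these lists had 11 and 6 (all genes 18.8%). Without replicate 2 they had 11 and 7 (15.4%), and without replicate 1 they had 6 and 5 (14.9%). Aminoacyl-tRNA synthetase genes had 8 of 35 with either replicate left out, compared with 6 in the report. The other cytosolic factors had 1 of 10 without replicate 2 (all genes 15.4%) and 3 of 10 without replicate 1 (14.9%), compared with 3 in the report. The cause was not tested. No paired analysis was possible because the 2 replicates form a single group. Unknown depth limits what the absence of a peak can show.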
